A study of Mus musculus with 3 samples.

Results

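The SLC25 mitochondrial carriers were followed in liver RNA of mice fed a high-fat diet with or without added iron. The members were all genes with a symbol starting with Slc25a, other than Slc25a20, that were read by at least 1 Affymetrix probe set naming no other gene. This gave 43 of the 18193 genes named on the array, read by 91 probe sets. Where several probe sets read a gene, the one with the highest mean of log2 signals over the 3 arrays stood for it. A gene was kept when this mean was in the upper 50% of non-control probe sets (a signal of at least 76.9). Of the 43 members 36 were kept, and the kept genes of the whole array numbered 11341.

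The 3 diets were compared in livers of male C57BL/6J mice. The HF+SFC diet took 60% of its energy from fat and contained sodium ferrous citrate, an iron salt, at 0.023% by weight. The HF diet took 60% of its energy from fat without the added iron salt, and the Control diet took 10% of its energy from fat. By the study, the Control diet also held a larger share of sucrose, and HF mice took in more energy than Control mice. All mice started their diet at 6 weeks of age and received it for 15 weeks, and by the study's methods they were fasted briefly before collection. The labels give each sample an age of 21 months, which differs from these times and was not used. Each diet was represented by 1 array hybridised with cDNA mixed from all its mice, so the 3 arrays include no replicates, no test between diets could be made, and every difference below is one between pools. No error between arrays, pools or mice was available. The SD of log2 ratios between kept probe sets of one gene comes from the same arrays and holds no such variation. It was 0.33 when HF+SFC was set over HF, 0.35 when HF was set over Control and 0.36 when HF+SFC was set over Control. Among the 14 members with more than 1 kept probe set the SD was 0.36 when HF+SFC was set over HF, 0.24 when HF was set over Control and 0.30 when HF+SFC was set over Control.

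SLC25 proteins form the largest family of mitochondrial transporters. They sit mostly in the inner membrane, which is otherwise tight to charged metabolites, and they exchange nucleotides, phosphate, organic acids, amino acids and cofactors between the matrix and the cytosol. In the liver they link the matrix to the urea cycle, gluconeogenesis, the export of citrate for fatty acid synthesis and the supply of iron and glycine for heme.

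Defining hepatocyte markers were bright on each array, and all 6 listed were kept, with summed signals of 239922 in HF+SFC, 234109 in HF and 254834 in Control. They were below 0 in HF over Control in 6 of 6, with a median log2 ratio of -0.11, and above 0 in HF+SFC over HF in 6 of 6, with a median of 0.05. The liver transcription factor Hnf4a was the one beyond 1.5-fold, at a log2 ratio of -0.61 for HF over Control, and the enzyme Tat stood at -0.38. The carriers that were lower in HF thus lay on the same side as the hepatocyte markers, whose part in those values was not tested. Markers of other liver cells differed between the pools. The 12 macrophage and Kupffer cell markers, all kept, summed to 22753 in HF+SFC, 31617 in HF and 23041 in Control, and were above 0 in HF over Control in 12 of 12 and below 0 in HF+SFC over HF in 12 of 12. The 10 stellate cell and matrix markers, all kept, summed to 17741 in HF+SFC, 23737 in HF and 15009 in Control, again with 10 of 10 above 0 in HF over Control and 10 of 10 below 0 in HF+SFC over HF. The 7 endothelial markers, all kept, summed to 8449 in HF+SFC, 9239 in HF and 8422 in Control. In such bulk RNA fewer cells of a type and less RNA per cell cannot be told apart.

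HF was compared with Control to ask how the carriers differed after the high-fat diet. Of the 36 kept carriers, 7 were at least 1.5-fold lower in HF and 4 at least 1.5-fold higher. The lower ones were Slc25a30, Slc25a34, Slc25a22, Slc25a42, Slc25a25, Slc25a33 and Slc25a14, and the higher ones Slc25a40, Slc25a4, Slc25a10 and Slc25a36. Among all 11341 kept genes 5.84% were at least 1.5-fold lower and 11.3% at least 1.5-fold higher, and among the kept carriers the shares were 19.4% and 11.1%. The share of lower carriers was therefore above that of the array, whereas the share of higher carriers was close to it. The median log2 ratio of the kept carriers was -0.05, against 0.03 over all kept genes, so that the carriers did not move as one group. The median size of the log2 ratio, without its sign, was 0.30 in the carriers and 0.25 over all kept genes.

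**Figure D1:**
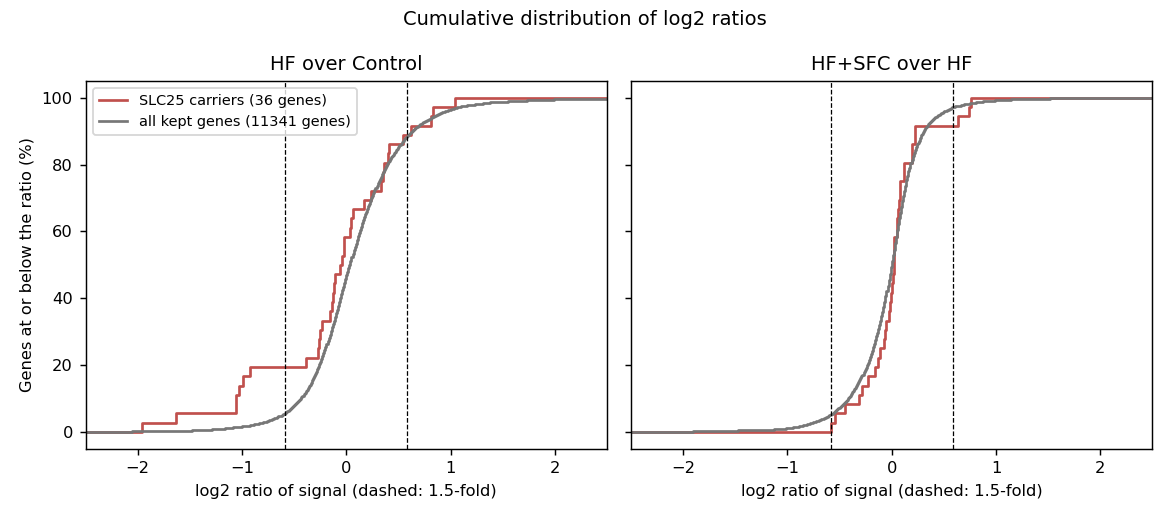
Cumulative share of genes (y axis, %) at or below each log2 ratio (x axis) for the 36 kept SLC25 carriers (red) and all 11341 kept genes (grey). The left panel sets HF over Control and the right panel HF+SFC over HF, from 1 array per diet, with dashed lines at 1.5-fold. On the left 19.4% of the carriers lie below the lower dashed line against 5.84% of all kept genes.

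The largest difference in HF was in the carboxylate and uncoupling-protein-like group. Slc25a30, also called KMCP1 and closest to the uncoupling proteins by sequence, had a signal of 2128 in HF+SFC, 3200.5 in HF and 12484 in Control. Both high-fat arrays thus stood far below Control, 3.90-fold lower in HF (log2 ratio -1.96) and 5.87-fold lower in HF+SFC (log2 ratio -2.55). All 4 kept probe sets of Slc25a30 showed this, with log2 ratios between -2.18 and -1.88 for HF over Control. A further probe set of Slc25a30 was dim, at signals of 2.64 in HF+SFC, 32.1 in HF and 26.6 in Control, and was not used.

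The same group held 2 further lower members, both of modest signal. Slc25a34, a carrier without a settled substrate, had 226 in HF+SFC, 136 in HF and 422 in Control, and was 3.10-fold lower in HF than in Control. Slc25a14, also named UCP5, had 162 in HF+SFC, 96.1 in HF and 183 in Control, and was 1.90-fold lower in HF than in Control. In both genes HF was the lowest of the 3 arrays, and each was read by 1 probe set, so that no second reading was at hand.

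The organic acid carriers of this group were not among the lower ones. Slc25a10, which exchanges malate and succinate for phosphate, had 4168 in HF+SFC, 4281 in HF and 2447 in Control. Both high-fat arrays exceeded Control, HF by 1.75-fold and HF+SFC by 1.70-fold, and the 2 probe sets of Slc25a10 lay at 0.77 and 0.81 on the log2 scale for HF over Control. Slc25a11, the oxoglutarate and malate carrier, stood just inside 1.5-fold at a log2 ratio of 0.54. Slc25a1, which exports citrate for fatty acid and sterol synthesis, had 5079 in HF+SFC, 4465 in HF and 4316 in Control, a log2 ratio of 0.05 for HF over Control.

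Among the carriers of adenine nucleotides, phosphate and cofactor nucleotides, 10 of 12 were kept, of which 2 were lower in HF and 1 higher. Slc25a42, which imports coenzyme A in exchange for adenine nucleotides, had 1331 in HF+SFC, 1403 in HF and 2934 in Control and was 2.09-fold lower in HF. Slc25a25, a calcium-dependent exchanger of ATP-Mg for phosphate, had 1388 in HF+SFC, 1410.5 in HF and 2884 in Control and was 2.04-fold lower in HF by its brightest probe set. By these probe sets the 2 high-fat arrays lay close together and both stood below Control. The other kept probe set of Slc25a25, which carries a suffix for possible matches to other transcripts, read 129 in HF+SFC, 237 in HF and 224 in Control, so its log2 ratio was -0.87 for HF+SFC over HF and 0.08 for HF over Control. On this probe set HF was not below Control and the high-fat arrays lay apart. The median over both probe sets was -0.47 for HF over Control, inside 1.5-fold.

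The ADP/ATP carriers, which exchange matrix ATP for cytosolic ADP, differed in their 2 kept isoforms. Slc25a4, the isoform that predominates in heart and skeletal muscle, had 397 in HF+SFC, 545 in HF and 308 in Control and was 1.77-fold higher in HF. Its 3 kept probe sets had log2 ratios between 0.72 and 0.82 for HF over Control. HF was the highest of the 3 arrays for Slc25a4, as it was for the summed macrophage and stellate cell markers given above, and the part of those cells in this result was not tested. The 6 skeletal muscle markers, of which 1 was kept, summed to 338 in HF+SFC, 134 in HF and 217 in Control. Singly, each of the 6 was highest in HF+SFC. Acta1, the kept one, was lowest in HF, as were the dim Ckm, Tnnt3 and Myl1, whereas the dim Myh7 and Mb were lowest in Control. Their part in the result for Slc25a4 was not tested.

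Slc25a5, the isoform of most other tissues, had 24849 in HF+SFC, 24556 in HF and 21927 in Control. Its 8 kept probe sets had log2 ratios between 0.16 and 0.47 for HF over Control, all above 0 and none beyond 1.5-fold. Slc25a3, which brings in the phosphate for ATP synthesis, had 19742.5 in HF+SFC, 19729 in HF and 20313 in Control, a log2 ratio of -0.04. All 3 kept probe sets of Slc25a4 carry a suffix for possible matches to several transcripts, and whether any of them also reads Slc25a5 was not tested. Slc25a51, the carrier of NAD, had log2 ratios between -0.51 and -0.40 over its 3 probe sets, all on the lower side but inside 1.5-fold. Slc25a16, linked to coenzyme A, stood at 0.41, the peroxisomal Slc25a17 at 0.40 and Slc25a23, a calcium-dependent ATP-Mg carrier, at -0.02.

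**Figure D2:**
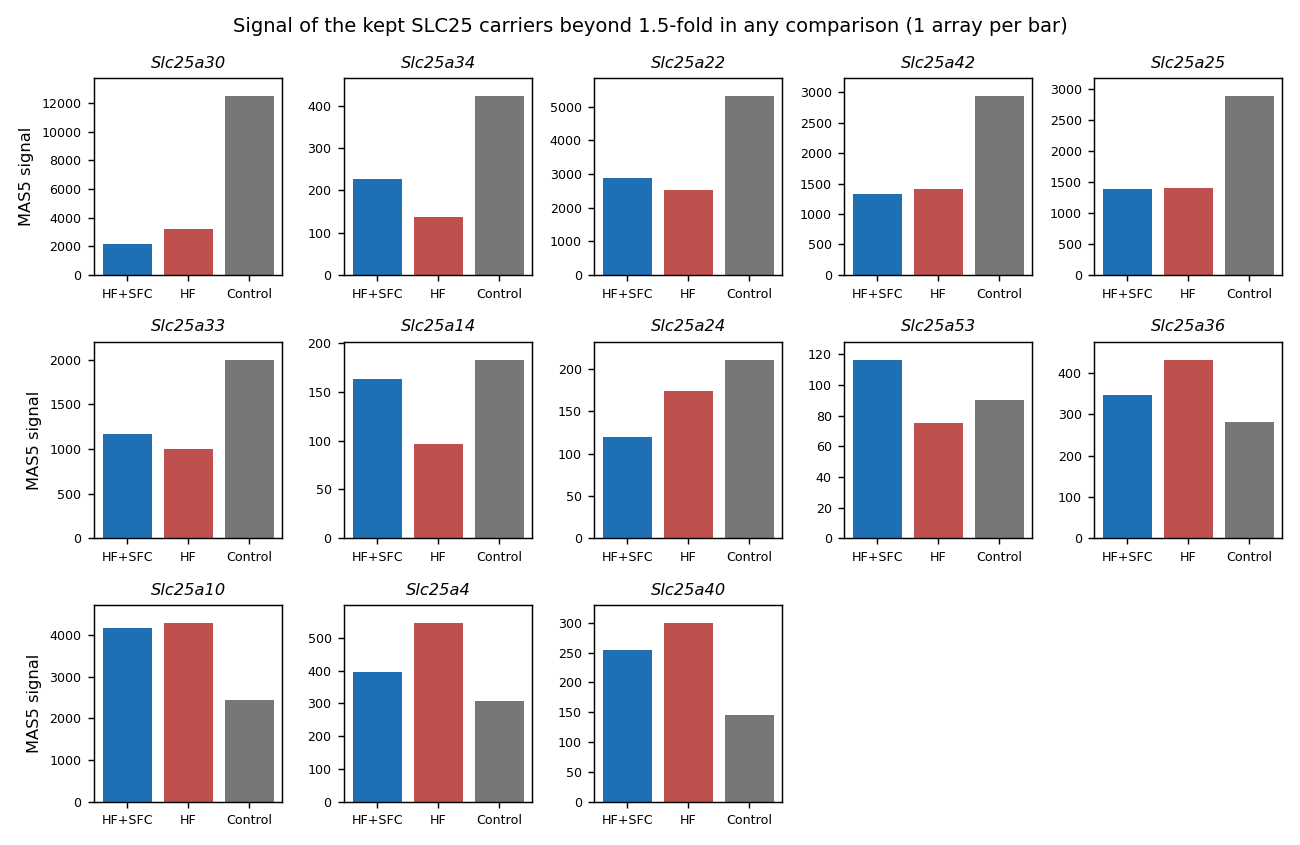
MAS5 signal (y axis, linear, own scale for each gene) of the 13 kept SLC25 carriers that were beyond 1.5-fold in any comparison, with 1 bar for the single array of HF+SFC, HF and Control, so that no error bars can be drawn. Slc25a30 reads 2128 in HF+SFC, 3200.5 in HF and 12484 in Control, and in Slc25a22, Slc25a42, Slc25a25 and Slc25a33 both high-fat arrays also lie well below Control.

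Of the 12 carriers grouped as those of amino acids and related substrates 10 were kept, and 1 was beyond 1.5-fold in HF. It was Slc25a22, which carries glutamate with protons into the matrix, and which had 2882 in HF+SFC, 2534 in HF and 5307 in Control. Slc25a22 was 2.09-fold lower in HF than in Control and 1.84-fold lower in HF+SFC than in Control, by its single probe set. The 2 carriers that serve the urea cycle differed less. Slc25a13, or citrin, the liver exchanger of aspartate for glutamate, had 8701 in HF+SFC, 7489.9 in HF and 8112 in Control, a log2 ratio of -0.12 for HF over Control. Slc25a15, the ornithine and citrulline exchanger, had 15925.5 in HF+SFC, 15366 in HF and 16869 in Control, a log2 ratio of -0.13. Over the 10 kept carriers of this group 8 were below 0 in HF over Control and the median log2 ratio was -0.12.

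The kept probe sets of Slc25a48 disagreed. The brightest probe set of Slc25a48 stood at 0.32 for HF over Control and its other kept probe set at -0.87. The branched-chain amino acid carrier Slc25a44 stood at 0.34, with its 3 probe sets between 0.34 and 0.42, and the liver-enriched Slc25a47 at -0.26. Slc25a12, or aralar, the other exchanger of aspartate for glutamate, stood at -0.06, and Slc25a45 at -0.16.

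The carriers of iron, glutathione, vitamins and pyrimidine nucleotides were all kept, 8 of 8, and 2 were higher and 1 lower in HF. Slc25a40, a carrier linked to mitochondrial glutathione import, had 254 in HF+SFC, 299 in HF and 146 in Control and was 2.05-fold higher in HF. Its relative Slc25a39, which imports glutathione, had 33643.5 in HF+SFC, 31072 in HF and 29932 in Control, and its 4 kept probe sets lay between -0.04 and 0.08 for HF over Control. For HF+SFC over HF the brightest of them stood at 0.11 and the others between -0.08 and -0.06. Each of them carries a suffix for possible matches to several transcripts. The 2 pyrimidine nucleotide carriers stood on opposite sides. Slc25a33 had 1164 in HF+SFC, 1005 in HF and 1998 in Control and was 1.99-fold lower in HF. Slc25a36 had 346 in HF+SFC, 432 in HF and 281 in Control and was 1.53-fold higher in HF, a difference that fell inside 1.5-fold under quantile, median and lowess scaling (log2 ratios of 0.55, 0.56 and 0.56). The S-adenosylmethionine carrier Slc25a26 stood at 0.04 and the folate carrier Slc25a32 at -0.12, and outside these groups Slc25a46, an outer membrane protein of mitochondrial dynamics, stood at -0.14.

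The carriers tied to iron and heme, Slc25a28, Slc25a37 and Slc25a38, stayed within 1.5-fold in all 3 comparisons. Slc25a28, or mitoferrin-2, the iron importer of most tissues, had 632 in HF+SFC, 623 in HF and 529 in Control, with log2 ratios of 0.02 when HF+SFC was set over HF and 0.24 when HF was set over Control. Slc25a37, or mitoferrin-1, the iron importer of red cell precursors, had 612 in HF+SFC, 686 in HF and 538 in Control, with log2 ratios of -0.17 when HF+SFC was set over HF and 0.35 when HF was set over Control. Slc25a38, which imports glycine for the first step of heme synthesis, had 531 in HF+SFC, 514 in HF and 604 in Control, with log2 ratios of 0.05 when HF+SFC was set over HF and -0.23 when HF was set over Control. These differences were no larger than the SD between kept probe sets of a gene over the whole array. All 3 genes lay in the upper 25% of signal, where that SD was smaller. It was 0.172 there when HF+SFC was set over HF and 0.196 when HF was set over Control. All 3 ratios of HF over Control exceeded this smaller SD in size, and those of HF+SFC over HF did not. This SD does not cover variation between arrays, pools or mice, so it cannot show whether the diets differed. Each of the 3 genes was read by 1 kept probe set. Of 8 erythroid markers 5 were read and 1 was kept, the heme synthesis gene Alas2, at signals of 2031 in HF+SFC, 2411 in HF and 2097 in Control, while the hemoglobin gene Hba-a1 read 14.7 in HF+SFC, 18.1 in HF and 52.1 in Control.

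**Figure D3:**
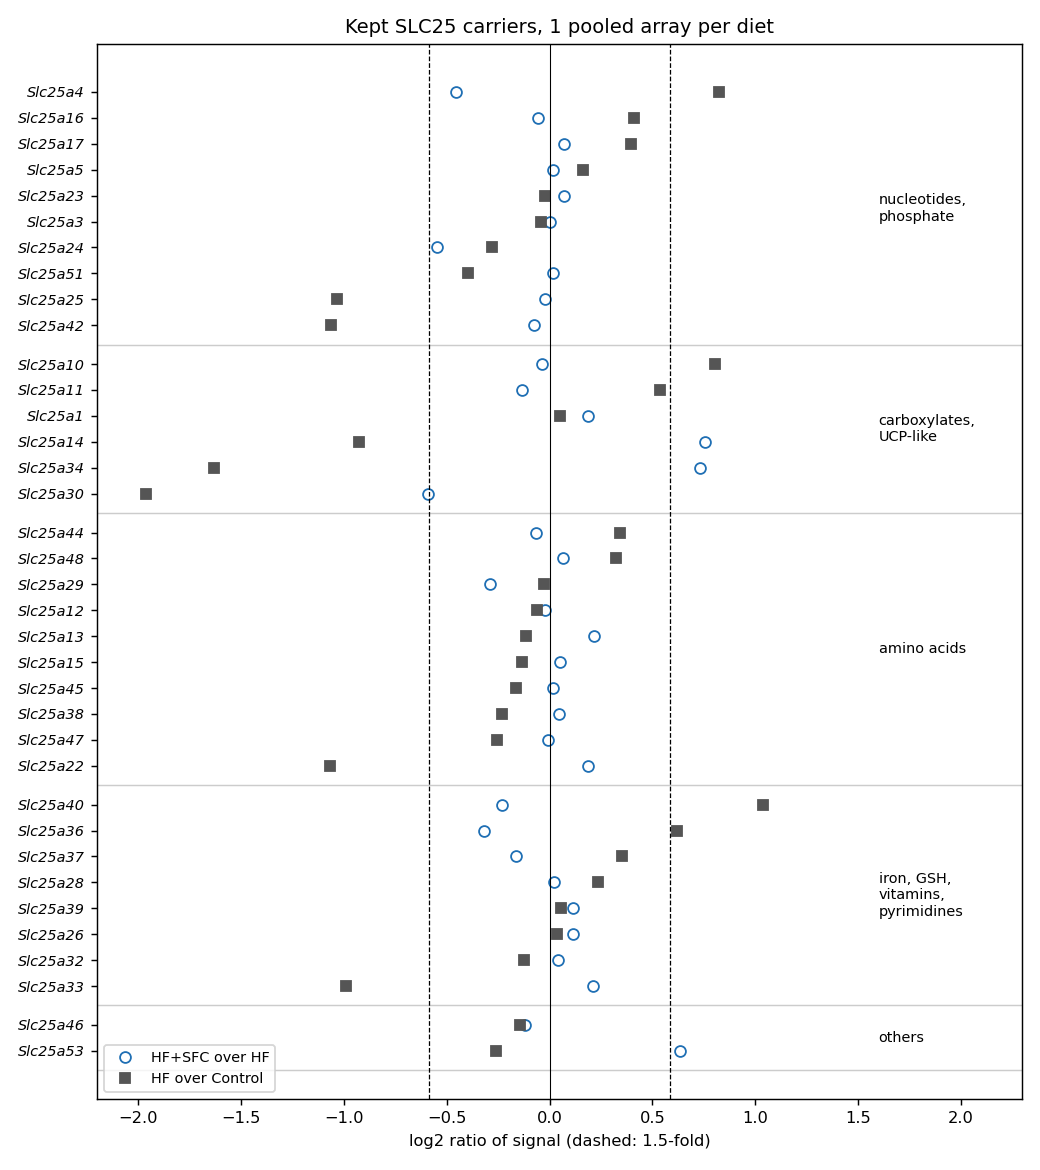
Log2 ratio of signal (x axis) of the 36 kept SLC25 carriers (rows, grouped by what they carry) for HF+SFC over HF (open blue circles) and HF over Control (grey squares), each point from 1 array per diet and dashed lines at 1.5-fold. Slc25a30 lies farthest left at -1.96 and Slc25a40 farthest right at 1.04, both for HF over Control, and most circles lie near 0. The 2 ratios share the HF array.

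The 7 carriers that were lower in HF were also examined at their promoters, since they stood on the same side of Control. RefSeq promoter windows (GRCm38.p6) were used for 33 of the 43 members, after all windows of 1 chromosome had been left out. Members without a window in use were Slc25a2, Slc25a26, Slc25a27, Slc25a32, Slc25a35, Slc25a37, Slc25a41, Slc25a44, Slc25a46 and Slc25a51. The 250 bases before each start were searched on both strands for 3 motifs. They were TGACG, the core of the cyclic AMP response element, CACGTG, the E-box, and AGGTCA, a nuclear receptor motif. Matches of different motifs could overlap. Of the 7 lower genes, with 13 windows because some have several starts, 3 held TGACG, 2 held CACGTG and 1 held AGGTCA in any window. Of the 4 higher genes, with 4 windows, 2 held TGACG, 1 held CACGTG and 0 held AGGTCA. Of the other 22 genes, dim ones included, with 25 windows, 5 held TGACG, 4 held CACGTG and 3 held AGGTCA. Over all 32851 promoter windows used, 17.8% held TGACG, 6.02% held CACGTG and 14.0% held AGGTCA, and a gene with several windows has more chances of a match. The 3 windows below are printed 5′ to 3′, with matches in capitals. Slc25a30 (chr14:75787038-75787287, minus strand) is shown as the gene of the largest difference and held none of the motifs. Slc25a25 (chr2:32424067-32424316, minus strand), 1 of its 3 windows, is shown for its overlapping matches of TGACG on both strands. Slc25a34 (chr4:141623835-141624084, minus strand) is shown as the only lower gene with an AGGTCA match, which lies on the opposite strand.
Slc25a30: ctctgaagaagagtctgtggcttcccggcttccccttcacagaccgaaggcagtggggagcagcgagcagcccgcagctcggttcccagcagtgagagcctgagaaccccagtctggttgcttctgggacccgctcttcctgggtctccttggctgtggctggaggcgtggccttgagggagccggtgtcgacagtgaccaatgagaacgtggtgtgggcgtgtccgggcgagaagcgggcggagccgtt
Slc25a25: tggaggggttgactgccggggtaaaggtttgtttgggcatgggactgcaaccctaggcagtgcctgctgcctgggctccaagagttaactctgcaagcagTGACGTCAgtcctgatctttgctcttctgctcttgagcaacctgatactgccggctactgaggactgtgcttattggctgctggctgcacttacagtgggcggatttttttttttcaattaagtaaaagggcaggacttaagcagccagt
Slc25a34: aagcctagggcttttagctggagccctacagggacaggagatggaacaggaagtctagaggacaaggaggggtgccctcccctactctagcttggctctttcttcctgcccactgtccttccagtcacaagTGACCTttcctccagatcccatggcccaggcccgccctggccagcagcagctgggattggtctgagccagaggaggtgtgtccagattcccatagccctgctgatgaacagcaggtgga

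HF+SFC was compared with HF to describe what the added iron salt went along with. The carriers differed little. Of the 36 kept carriers 3 were at least 1.5-fold higher in HF+SFC, namely Slc25a14, Slc25a34 and Slc25a53, and 1, Slc25a30, was at least 1.5-fold lower. Over all kept genes 2.88% were at least 1.5-fold higher and 5.33% lower, and in the carriers the shares were 8.33% and 2.78%. Under quantile scaling the shares of all kept genes were 3.99% higher and 4.02% lower, and under median centring 0 carriers were lower. The median log2 ratio of the carriers was 0.02, against -0.01 over all kept genes, and its sign turned under quantile and lowess scaling. The median size of the log2 ratio without its sign was 0.10 in the carriers and 0.16 over all kept genes. Of the 36 kept carriers 27 (75%) lay in the upper 25% of signal, against 60.3% of all kept genes. Within that upper range the median sizes were 0.07 in the carriers and 0.12 over all kept genes.

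The 3 higher carriers were all of low signal. Slc25a14 and Slc25a34, whose signals are given above, were 1.69-fold and 1.66-fold higher in HF+SFC than in HF. Their HF reading, shared by both comparisons, was the lowest of the 3 arrays, so the difference from Control and the difference from HF+SFC are not separate observations. Slc25a53, a carrier of unknown substrate, had 116 in HF+SFC, 75.1 in HF and 90.0 in Control a log2 ratio of 0.63 for HF+SFC over HF. This ratio was 0.42 when signals were floored at their array's median and 0.54 with a pseudocount of 16, both inside 1.5-fold.

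Slc25a30 was lower in HF+SFC than in HF by just over 1.5-fold (log2 ratio -0.59), so that its signal stood lower on the array with iron than on the array without. Its 4 kept probe sets lay between -0.63 and -0.55 on the log2 scale, 2 of them just beyond and 2 just inside 1.5-fold, and the call ended under median centring (-0.55) and with the median over probe sets (-0.57). Slc25a24, a calcium-dependent ATP-Mg and phosphate carrier, had 119 in HF+SFC, 174 in HF and 211 in Control, a log2 ratio of -0.55 for HF+SFC over HF. Slc25a4 stood at -0.46, with its 3 kept probe sets between -0.74 and -0.44, and Slc25a36 at -0.32. In these genes HF+SFC lay below HF, as it did in the macrophage and stellate cell markers. Those markers, Slc25a4 and Slc25a36 stood higher in HF than in Control. Slc25a30 (log2 ratio -1.96) and Slc25a24 (-0.28) stood lower in HF than in Control. The part of those cells in these values was not tested.

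The other 4 carriers that were lower in HF than in Control were near level between the high-fat arrays by their brightest probe sets. Their log2 ratios for HF+SFC over HF were 0.21 for Slc25a33, 0.19 for Slc25a22, -0.02 for Slc25a25 and -0.08 for Slc25a42. The second kept probe set of Slc25a25 stood at -0.87 here, and the median over both was -0.45. Of the liver carriers with high signal, Slc25a13 stood at 0.22, Slc25a1 at 0.19, Slc25a15 at 0.05, Slc25a5 at 0.02 and Slc25a3 at 0.00. For Slc25a29, a basic amino acid carrier, 1 of 5 kept probe sets stood at -2.00 and the others between -0.29 and 0.06, while the second probe set of Slc25a48 stood at 1.14 against 0.06 for the brightest one. The median over both probe sets of Slc25a48 was 0.60, past 1.5-fold, which made 4 higher carriers under that setting.

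**Figure D4:**
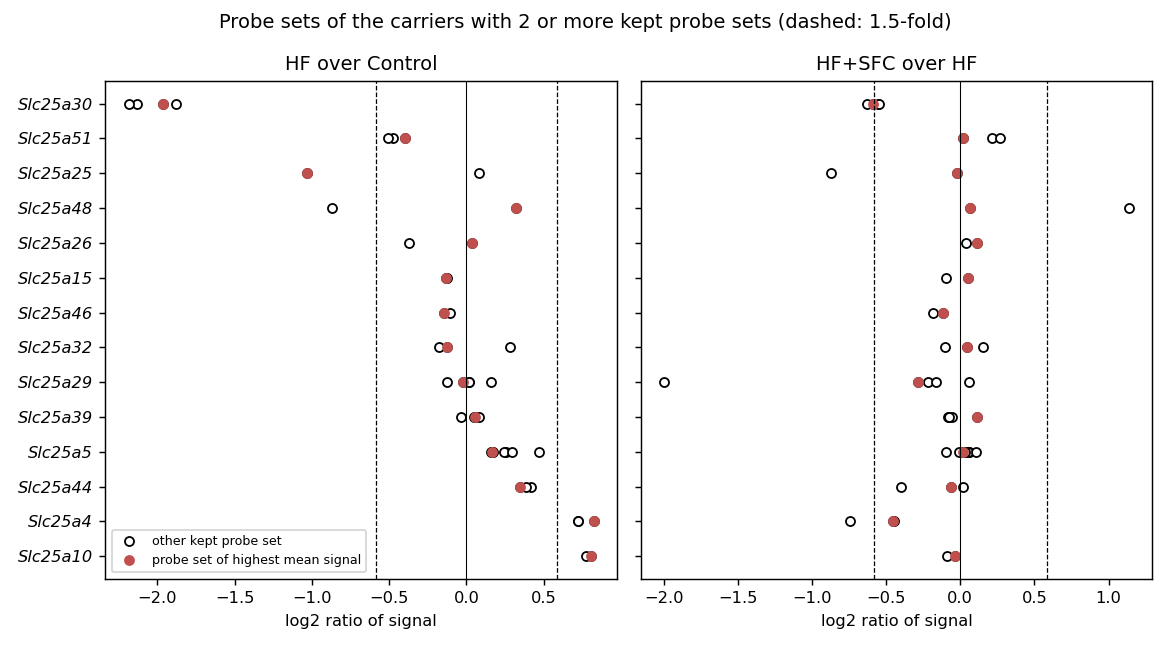
Log2 ratio of signal (x axis) for each kept probe set of the 14 SLC25 carriers with 2 or more kept probe sets (rows). The left panel sets HF over Control and the right panel HF+SFC over HF. Filled red points are the probe sets of highest mean signal, which represent the gene, open points the others, and dashed lines 1.5-fold. The 4 probe sets of Slc25a30 lie together on the left between -2.18 and -1.88, whereas those of Slc25a25 and Slc25a48 lie apart.

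A further comparison, of HF+SFC with Control, shares an array with each of the others. Of the 36 kept carriers 7 were at least 1.5-fold lower in HF+SFC and 2 at least 1.5-fold higher, where 6.88% and 9.20% of all kept genes were. The lower ones were Slc25a30 at -2.55 on the log2 scale, Slc25a42 at -1.14, Slc25a25 at -1.05, Slc25a34 at -0.90, Slc25a22 at -0.88, Slc25a24 at -0.82 and Slc25a33 at -0.78. Both kept probe sets of Slc25a25 passed here, at -1.05 and -0.79. Slc25a14 stood at -0.17, close to Control. The higher ones were Slc25a40 at 0.81 and Slc25a10 at 0.77, while Slc25a4 at 0.37 and Slc25a36 at 0.30 lay inside 1.5-fold.

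The 7 members that were not kept were Slc25a2, Slc25a18, Slc25a27, Slc25a31, Slc25a35, Slc25a41 and Slc25a54. Their signals lay between 3.99 and 81.2 on the 3 arrays, and their ratios are not given. The most uneven was Slc25a41, a relative of the ATP-Mg and phosphate carriers, at 6.42 in HF+SFC, 5.44 in HF and 57.1 in Control. Slc25a27, or UCP4, read 63.5 in HF+SFC, 60.9 in HF and 18.2 in Control.

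Other genes of mitochondrial transport were set beside the 36 kept carriers. Of 26 listed, among them relatives of the same family outside the symbol rule or left out by it (Slc25a20, Ucp1, Ucp3, Mtch1 and Mtch2), the pyruvate carrier, the outer membrane channels, the sideroflexins and the ABC transporters of iron and heme metabolism, 22 were read and 19 kept. In HF over Control 1 of the 19 was higher and 0 were lower, where 11.3% and 5.84% of all kept genes were. The median log2 ratio was 0.07, against 0.03 over all kept genes. The higher one was Mpc1, a subunit of the pyruvate carrier, at 17242 in HF+SFC, 16951 in HF and 11117 in Control (log2 ratio 0.61). In HF+SFC over HF 0 of 19 were beyond 1.5-fold and the median was 0.11. Of all kept genes 2.88% were higher and 5.33% lower in that comparison. In HF+SFC over Control 1 of 19 was higher (Mpc1, 0.63) and 1 lower (Ucp3, -0.79), where 9.20% and 6.88% of all kept genes were. Slc25a20, the carnitine and acylcarnitine carrier of fatty acid oxidation, had a log2 ratio of -0.49 for HF over Control, and Abcb10, a transporter of the inner membrane needed for heme synthesis, stood highest in HF+SFC over HF at 0.30. No test of the difference between these genes and the 36 kept carriers was made.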

How the data were processed

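Pooled liver cDNA, 1 pool per diet, had been hybridised to Affymetrix GeneChip Mouse Genome arrays. The deposited values are MAS5 signal intensities on a linear scale, made by the authors (MAS5 version not given in the sources used here), and the 2% trimmed mean was 500.004 on each of the 3 arrays, so differences in total signal had been removed before deposit. Of 45037 probe sets other than the 64 controls, 34945 named 1 gene in the platform annotation, 932 named several and 9160 were not listed. Only those with 1 gene were used, and 1 probe set shared by a carrier and another gene was left out. The symbols of 43 of 43 members matched RefSeq (GRCm38.p6). No genome build applies to the array values. Some family members are not reported here.

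Log2 ratios of the signals of 2 arrays were computed with Python 3.11.15, numpy and pandas, without a pseudocount. Counts used the 1.5-fold threshold of the study. With 1 array per group no test was run, and the number of arrays limits the precision. The SD between probe sets of one gene mixes noise with differences between transcripts and cross-hybridisation. It leaves out variation between arrays, pools and mice. A suffix of _s_at, _x_at or _a_at marks probe sets that can match several transcripts, and 9 of the 36 kept carriers were read by one. Values were given for all kept carriers beyond 1.5-fold in any comparison and for Slc25a28, Slc25a37, Slc25a38, Slc25a39, Slc25a40, Slc25a1, Slc25a3, Slc25a5, Slc25a13 and Slc25a15, and the others by range or ratio. The members, marker lists and transport list were chosen with earlier results of these data known. The alternatives were quantile, median and lowess (fraction 0.3) scaling, no filter, the upper 25% of signal, a floor, a pseudocount of 16, the median over probe sets, leaving out suffixed probe sets and a 2-fold threshold. The steps were tested on simulated data. Promoter sequences are from RefSeq.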

Additional observations from a re-analysis of the deposited data

How the results depend on the processing

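No paired analysis was possible because each diet has 1 array, and no replicate could be left out. The count of 7 carriers lower in HF than in Control lay between 5 and 10 under every alternative. The share of all genes moved with it. With no filter 10 of 43 carriers were lower, where 15.1% of all genes were. In the upper 25% of signal 5 of 27 carriers were lower, where 4.14% of all genes were. With a 2-fold threshold 5 of 36 carriers were lower, where 1.69% of all kept genes were. Other counts moved more. The 4 carriers higher in HF than in Control became 2 in the upper 25% of signal, 2 without suffixed probe sets, which left Slc25a4 and Slc25a36 with no kept probe set, and 1 with a 2-fold threshold. For HF+SFC over HF the 3 higher carriers became 5 with no filter, 4 with the median over probe sets, which added Slc25a48, 0 in the upper 25% of signal and 0 with a 2-fold threshold, and the 1 lower carrier became 0 under median centring, 2 with no filter, 0 with the median over probe sets and 0 with a 2-fold threshold. Of all genes 0.571% were higher and 1.11% lower in the upper 25% of signal, and 0.767% and 1.19% with a 2-fold threshold. With the median over probe sets 2.72% were higher and 5.20% lower, and under median centring 4.51% were lower. For HF+SFC over Control the 2 higher carriers became 4 with no filter, 1 in the upper 25% of signal and 0 with a 2-fold threshold. There 6.00% of all genes were higher in the upper 25% of signal and 2.81% with a 2-fold threshold. The 7 lower carriers became 3 with a 2-fold threshold, where 1.83% of all kept genes were lower. Without the filter many more of all genes passed. In HF over Control 20.3% of them were higher, where 5 of 43 carriers were. In HF+SFC over HF 12.8% of them were higher and 16.6% lower, and in HF+SFC over Control 17.7% were higher.

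The median log2 ratio of the carriers for HF over Control, -0.05, moved to -0.13 without suffixed probe sets. For HF+SFC over HF the median of 0.02 was -0.0068 under quantile scaling, -0.00059 under lowess scaling and -0.0036 with the median over probe sets. For HF+SFC over Control the median of 0.0046 was -0.015 under median centring, -0.041 in the upper 25% of signal, -0.033 with the median over probe sets and -0.082 without suffixed probe sets. These medians lie close to 0, so that their sign carries little. Of 921 values of the 36 kept carriers under the alternatives other than the 2-fold threshold, 4 moved by more than the SD between probe sets, all with the median over probe sets. They were Slc25a25 (-0.45 for HF+SFC over HF and -0.47 for HF over Control) and Slc25a48 (0.60 for HF+SFC over HF and -0.27 for HF over Control, where its brightest probe set stood at 0.32). No carrier beyond 1.5-fold changed sign. Many of the 921 values could not move, because a change of filter leaves the ratio of a kept carrier as it was. The median over probe sets likewise changes nothing for a carrier with 1 kept probe set. The small number that moved is therefore no measure of precision. Dim carriers were limited by signal, since the 3 carriers higher in HF+SFC than in HF were all below 394, the lower bound of the upper 25% of signal. The cause of the changes was not tested beyond what each alternative leaves out.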
